A study of Mus musculus with 3 samples.

Results

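Tcf7 and Lef1, the gene of their coactivator Ctnnb1, 3 Groucho corepressor genes (Tle1, Tle3 and Tle4) and the T cell regulators Satb1 and Myb were followed in polyA-selected RNA from regulatory T cells of the mouse. These 8 genes were taken by their GENCODE M21 names from 55536 annotated genes, and the transcripts of Tcf7 and Lef1 were taken with them. The labels describe the cells as regulatory T cells with experience of inflammation, from 1 male adult donor mouse of 16 weeks. The strain is Foxp3GFP-DTRCD4CreERT2R26tdTomato, whose name joins GFP and the diphtheria toxin receptor under Foxp3, the tamoxifen-activated CreERT2 under CD4, and tdTomato at R26. The source is given as the whole organism, and neither the organ nor the sort is stated in the labels. There are 3 libraries in 1 group, labelled technical replicates 1, 2 and 3 of 1 biological replicate. They are called library 1, library 2 and library 3, and no second condition was present. Each SD below is the spread between these libraries (n = 3), and each p-value measures only how the libraries differ, which may be technical.

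TCF-1, the product of Tcf7, and LEF-1 are DNA-binding proteins of the high mobility group (HMG) box family that are abundant in naive and memory T cells and decline as T cells become effectors. Both bind beta-catenin through their N-terminal end, and in the absence of beta-catenin they bind Groucho proteins, which repress transcription. Both genes use more than 1 promoter, so that long proteins with the beta-catenin part and short proteins without it can be made. In regulatory T cells, both factors are known to be needed for normal suppressive function.

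The first exons are shown because they decide whether a transcript of either gene can encode the part that binds beta-catenin. Lef1 lies on chromosome 3 at 131110471-131224356 (mm10, plus strand). Its annotated transcripts Lef1-201, Lef1-202 and Lef1-204 begin with an exon of 1208 bases, of which 207 bases code for 69 residues. Lef1-203 begins downstream with an exon of 24 bases, of which 9 bases are coding. In the 2 junctions below, read from the GENCODE M21 transcripts, capitals mark the bases of exon 1 and lower case the start of the shared exon 2, whose first 30 bases lie at chr3:131113856-131113885. The exon 1 bases printed lie at chr3:131111649-131111678 for Lef1-201 and chr3:131112797-131112820 for Lef1-203.
Lef1-201, end of the upstream exon 1: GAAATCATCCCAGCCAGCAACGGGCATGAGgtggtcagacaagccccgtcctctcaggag
Lef1-203, the downstream exon 1: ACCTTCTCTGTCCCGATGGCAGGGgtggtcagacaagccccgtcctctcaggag
Lef1-201 encodes 397 residues and Lef1-203 encodes 331. When the 2 proteins were aligned, the first residue of the Lef1-203 product met residue 67 of the Lef1-201 product, and 328 residues were identical. The long first exon is therefore the main difference between these products.

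Tcf7 lies on chromosome 11 at 52252371-52283014 (minus strand) and has 2 annotated transcripts, Tcf7-201 and Tcf7-202. Both use 1 start codon, whose first base is 52282217, and both encode the same 303 residues. Aligned with Lef1-201, the first residue of this Tcf7 product met residue 99, so nothing in the annotated Tcf7 protein corresponds to the part that Lef1 encodes in its upstream exon. The 250 bases before Tcf7-202, from the RefSeq promoter table (GRCm38.p6), held 1 ATG. The 165 bases from that ATG to the annotated transcript start are at chr11:52283015-52283179 on the minus strand. They are shown because they lie outside both annotated transcripts, and capitals mark the ATG.
Tcf7, bases before the annotated Tcf7-202: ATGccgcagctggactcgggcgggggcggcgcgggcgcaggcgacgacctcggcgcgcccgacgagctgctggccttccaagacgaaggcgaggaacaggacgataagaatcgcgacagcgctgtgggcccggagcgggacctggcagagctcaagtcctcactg
Read on through Tcf7-202, this frame held no stop codon before the annotated start codon and ended at the annotated stop, which gave 419 residues, 116 of them before the annotated start. Of the 69 residues of Lef1 exon 1, 66 aligned with this extension and 36 were identical (54.5%). Over the whole frame, 377 residues aligned with Lef1-201 and 209 were identical (55.4%). Neither annotated Tcf7 transcript holds these 165 bases, so a split of Tcf7 into long and short forms cannot be read from the Tcf7 entries.

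The 3 libraries held 17535472 to 20996194 expected counts. Library 3 stood apart from the others. Over 9305 protein-coding genes, the deviation of library 3 had a Spearman rho of -0.53 with local GC content, here the GC percent of the most GC-rich 200-base window in a gene's most abundant transcript. The genes share libraries and depth, so this is a description. All 10 T and regulatory T cell markers were detected, meaning that no library was below 1 TPM, a level scaled for transcript length and library depth, among them Trac at 2933 ± 208 TPM and Foxp3 at 74.3 ± 13.8 TPM. Markers of other cells were present too. Erythroid markers, 5 of 6 detected, summed to 1390, 1097 and 1751 TPM in libraries 1, 2 and 3, and B cell markers, 5 of 8 detected, to 89.2, 92.4 and 110 TPM. Myeloid markers, 3 of 8 detected, summed to 36.4, 37.1 and 26.9 TPM. Thymocyte and progenitor markers, 2 of 8 detected, summed to 19.3, 25.2 and 21.7 TPM. Most of that sum was Cd8b1, a chain of the CD8 coreceptor, at 15.8, 21.1 and 16.99 TPM. Kit had 26 to 49 counts and Dntt 24 to 55, while Rag2 had 0 counts in each library and Rag1 had 0, 0 and 3. Tcf7 and Lef1 are also expressed in other T cells and in thymocytes, and Lef1 in early B cells. The part of such cells in the levels below was not tested, and in bulk RNA fewer cells of a type and less RNA per cell cannot be told apart.

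The level of Tcf7 was 181 TPM in library 1, 251 in library 2 and 329 in library 3 (mean 254 ± 73.9). It was lowest in library 1 and highest in library 3. Lef1 had 211, 258 and 289 TPM in the same order (mean 252 ± 39.2), again lowest in library 1 and highest in library 3. The 2 genes stood side by side, at ranks 586 and 588 of 22028 protein-coding genes by mean TPM. Their difference, Tcf7 minus Lef1 on the log2(TPM + 1) scale, was -0.22, -0.03 and 0.19, so Lef1 was higher in libraries 1 and 2 and Tcf7 in library 3. The mean difference of -0.02 ± 0.20 was smaller than its spread, and the data do not say which gene is the more abundant.

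Beta-catenin, encoded by Ctnnb1, joins TCF and LEF proteins to coactivators and also links cadherins to the cytoskeleton. Ctnnb1 (chr9:120929216-120960507, plus strand) was measured at 93.3, 83.2 and 40.0 TPM (mean 72.2 ± 28.3), with library 3 below both other libraries. Satb1 encodes a chromatin organiser of T cells that is kept low for the suppressive programme of mature regulatory T cells. The gene (chr17:51736187-51833290, minus strand) was measured at 30.1, 46.7 and 30.5 TPM (mean 35.8 ± 9.50), high in library 2 alone. Both genes lay well under Tcf7 and Lef1 in each library.

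The Groucho genes differed widely in level. Tle3 (chr9:61372366-61418497, plus strand) led with 19.9, 22.3 and 14.8 TPM (mean 19.0 ± 3.8). Tle4 (chr19:14448150-14598051, minus strand) was measured at 8.74, 6.22 and 6.63 TPM (mean 7.20 ± 1.35). Tle1 (chr4:72117142-72200919, minus strand) stayed under the detection limit in each library, at 0.97, 0.94 and 0.76 TPM (mean 0.89 ± 0.11), which is the median of protein-coding genes by rank. By the deposited posterior mean TPM it was above the limit in each library, at 1.58, 1.47 and 1.32, so its detection depends on the estimate used. Its counts were 38, 34 and 24, with exact Poisson 95% intervals of 26.9 to 52.2, 23.5 to 47.5 and 15.4 to 35.7, which overlap and cover counting error only. Myb encodes a transcription factor of progenitors that is also known from effector regulatory T cells. The gene (chr10:21124935-21160984, minus strand) was measured at 6.44, 6.80 and 4.30 TPM (mean 5.85 ± 1.35), lowest in library 3.

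**Figure D1:**
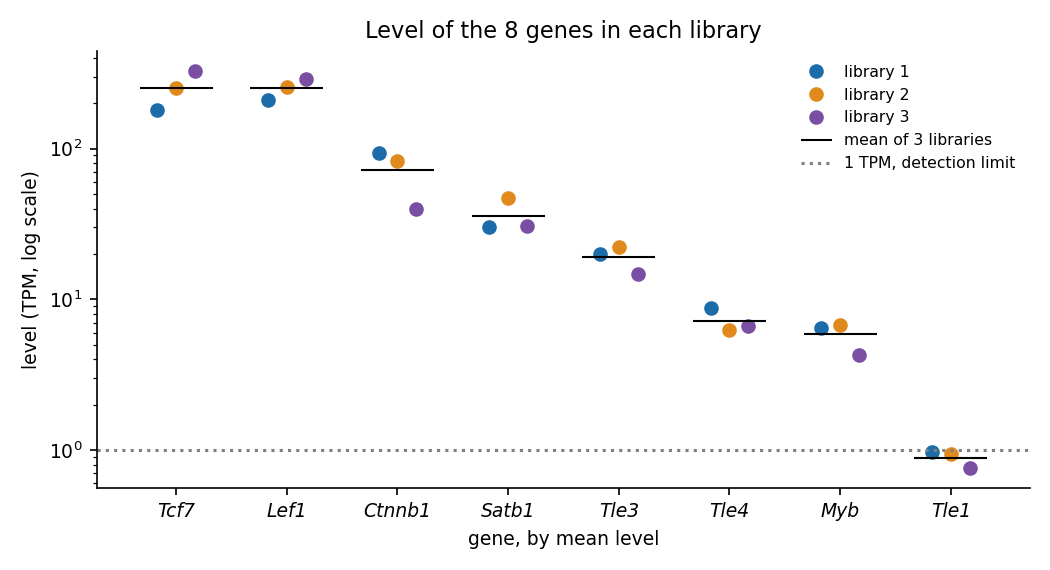
Level of each of the 8 genes in TPM on a log axis, with 1 point for each of the 3 libraries, a bar at their mean and a dotted line at the detection limit of 1 TPM. Tcf7 and Lef1 lie together at 254 and 252 TPM on average, and Tle1 lies under 1 TPM in each library.

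Ordered by mean log2(TPM + 1), the genes were Lef1, Tcf7, Ctnnb1, Satb1, Tle3, Tle4, Myb and Tle1. Neighbours were told apart where their difference had 1 sign in all 3 libraries and its mean exceeded 2 SD, a descriptive rule without a p-value, since 3 technical libraries cannot give an exact p under 0.05. This held for 3 of the 7 neighbouring pairs. Satb1 was above Tle3 by 0.87 ± 0.25, Tle3 above Tle4 by 1.28 ± 0.35 and Myb above Tle1 by 1.84 ± 0.22 on the log2(TPM + 1) scale. Tcf7 exceeded Ctnnb1 by 0.95, 1.58 and 3.01, the same sign in each library, but the mean of 1.85 ± 1.06 missed the limit. Ctnnb1 over Satb1 (0.93 ± 0.62) and Tle4 over Myb (0.27 ± 0.34) missed it as well. Without library 3, 5 of the 7 pairs were told apart, among them Tcf7 and Ctnnb1.

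Expected counts, rounded, were tested for differences between the libraries with Pearson's chi-square, the expectation being Poisson counting at library sizes corrected by the TMM factors of edgeR. P-values were adjusted by Benjamini-Hochberg over all genes with 10 or more counts on average. Of 14877 genes tested, 9501 were called at an adjusted p under 0.05, which is 63.9%. Of the 8 genes followed here, 7 were called, and Tle1 was not (adjusted p = 0.399). With so large a share called, being called says little about any one of them, and the size of the spread is more informative. Over the 9995 genes with 100 or more counts on average, the highest scaled count was 1.27 times the lowest at the median and 2.57 times at the 90th percentile.

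Ctnnb1 had the widest spread of the 8 genes. Its expected counts were 2798, 2244 and 795, and the highest scaled count was 3.14 times the lowest (adjusted p = 1.87e-200), above the 90th percentile of all genes. Tcf7 followed with 5641, 7205 and 9451 counts and a factor of 1.88 (chi-square 1441 on 2 degrees of freedom). Lef1 had 6115, 7038 and 7624 counts and a factor of 1.40 (adjusted p = 1.31e-86). Tcf7 and Lef1 thus shared their order of libraries, while Ctnnb1 had the reverse order.

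Satb1 had 1284, 1858 and 1137 counts and a factor of 1.63 (adjusted p = 2.69e-54). On GENCODE M21, that call rested on library 2: without it, the adjusted p was 0.866. Tle3 had 984, 1119 and 666 counts and a factor of 1.68. Tle4, with 487, 289 and 304 counts, was high in library 1 only, and without library 1 its adjusted p was 0.64. Myb, with 261, 238 and 141 counts, was low in library 3 only, and without library 3 its adjusted p was 0.906. In the second deposited gene table, which counts on GENCODE M4, the same 7 genes were called, beside 56.7% of the 10964 genes tested there. In that table too Tcf7 (1131, 1329 and 1514 counts) and Lef1 (1452, 1558 and 1576) were lowest in library 1, and Ctnnb1 (1496, 1197 and 402) was lowest in library 3.

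Library 3 was also set against the mean of the other libraries on the log2(TPM + 1) scale. Tcf7 deviated by 0.62, at the 99.5th percentile of the 7529 protein-coding genes with at least 10 TPM on average, and Lef1 by 0.31, at the 93.0th percentile. In library 1 the same measure was -0.67 for Tcf7 and -0.37 for Lef1, at percentiles 0.50 and 3.08. Ctnnb1 deviated by -1.12 in library 3, at the 11.8th percentile. Myb (-0.52), Tle3 (-0.48) and Satb1 (-0.29) lay at percentiles 24.1, 25.4 and 31.0, so many genes were as low in this library. Tle4 (-0.14) lay nearer 0. Tle1 had -0.15, but at its mean of 0.89 TPM the added 1 shrinks any deviation, so this value is not comparable with the others. In scaled counts, Tle1 was lowest in library 3, with a factor of 1.41 between the highest and lowest library, though it was not called. Myb, Tle4 and Tle1 averaged under 10 TPM, so they are not themselves among the genes ranked here.

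Local GC content moved with these deviations in part. Tcf7 and Lef1 have local GC contents of 65.0% and 63.0%, and genes of 64 to 66% and of 62 to 64% had median deviations of library 3 from the mean of all 3 libraries of 0.03 and 0.05 (log2 of scaled counts). Myb and Tle3 have 75% and 77.0%, and genes of 73 to 75% and of 76 to 78% had medians of -0.73 and -0.66. The relation turned back at higher GC, where genes of 83 to 85% had a median of 0.04, and Tle4 has 84.5%. With a lowess trend on local GC removed from the counts, the factor between the highest and lowest library stayed at 1.87 for Tcf7 and 1.35 for Lef1. For Tle3 it was 1.29, and for Myb 1.12, where the call was lost (adjusted p = 0.606). Satb1 (68.0% local GC) kept a factor of 1.65 and Tle4 (84.5%) one of 1.59. Tle1 (79.5%), which has few counts and had not been called, went from 1.41 to 1.04. Other sources of the spread in Tcf7 and Lef1 were not tested.

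Ctnnb1 was a special case, because the transcript that sets its local GC content was a retained-intron transcript. With that transcript's 59.5%, removal of the trend left a factor of 3.35. The most abundant protein-coding transcript, Ctnnb1-201, has a local GC content of 74.0%, and with coding transcripts used for all genes the factor of Ctnnb1 was 1.70 (adjusted p = 1.86e-38), in an alternative chosen after seeing the data. The size of the Ctnnb1 spread that goes beyond the GC trend therefore depends on which transcript stands for the gene.

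**Figure D2:**
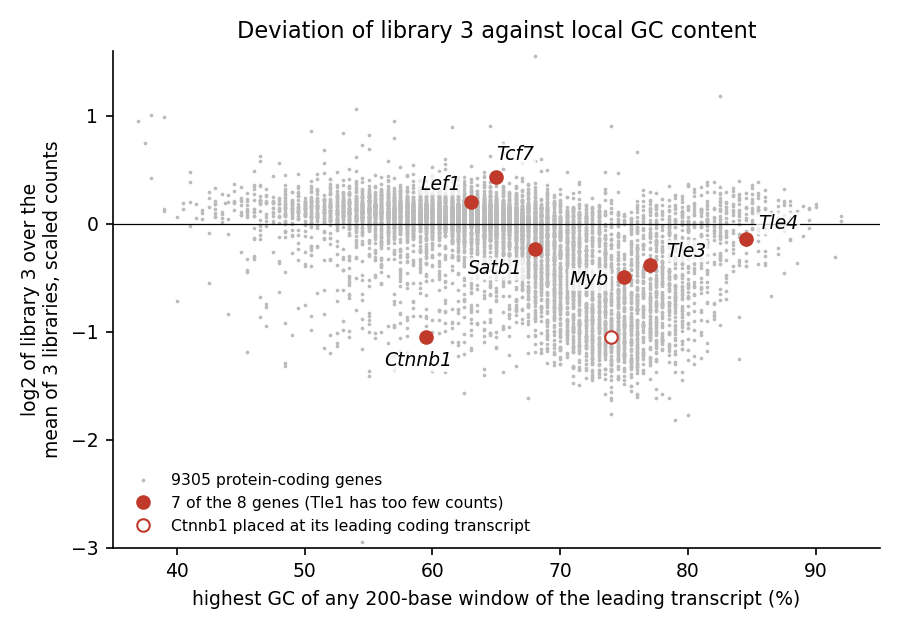
Each grey point is 1 of 9305 protein-coding genes, plotted by local GC content (percent, x axis) and by the log2 of library 3 over the mean of the 3 libraries in scaled counts (y axis), with 3 genes beyond the axes. Red points are the genes followed here other than Tle1, and the open point places Ctnnb1 at the 74.0% of its leading coding transcript, where the grey points dip, instead of 59.5%.

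**Figure D3:**
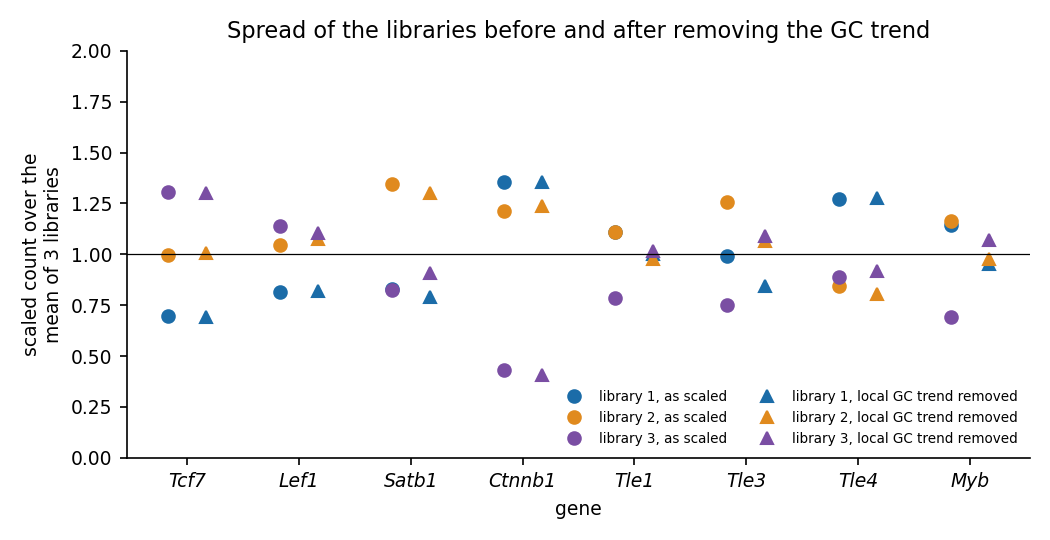
Scaled count of each library over the mean of the 3 libraries (y axis) for the 8 genes (x axis), as scaled (circles) and with the local GC trend of the most abundant transcript removed (triangles). Tcf7 and Lef1 keep their spread, with factors of 1.87 and 1.35 between the extreme libraries after removal. The libraries draw together for Myb at 1.12 and for Tle1, which has few counts, at 1.04.

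Among the Lef1 transcripts, Lef1-203, with the downstream start shown above, took 65.4%, 63.9% and 76.4% of the gene's TPM (mean 68.6 ± 6.84%). Its level was 138, 165 and 221 TPM. The transcripts with the upstream 1208-base exon summed to 24.4, 35.8 and 15.9 TPM, which is 11.6%, 13.9% and 5.50% of the gene (mean 10.3 ± 4.34%). Among protein-coding transcripts alone, the upstream start took 15.0%, 17.9% and 6.71% of the TPM (mean 13.2 ± 5.80%). In each library, by these estimates, most annotated coding Lef1 transcript was of the form without the 69 residues of the upstream exon. As shares of expected counts, which weigh long transcripts more, the upstream transcripts had 17.7%, 20.8% and 8.45%.

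The share of the upstream start was lowest in library 3, and the level of Lef1-203 was highest there. Lef1-201 and Lef1-203 differ in length by their first exons alone, so their split rests on reads in the 1208-base exon. The local GC content of Lef1-201 is 74.0%, against 63.0% for Lef1-203, and genes of 73 to 75% had a median deviation of -0.73 in library 3. The part of GC content in the lower share of library 3, or in the low share of each library, was not tested. Evenness of reads along the transcripts was not tested either. The deposited posterior mean TPM of Lef1-201 was 14.7, 26.1 and 7.63, with credibility bounds of 8.57 to 20.5, 20.4 to 30.8 and 2.94 to 11.7, whose level the sources used here do not give. The bounds of libraries 2 and 3 do not overlap, while those of libraries 1 and 3 do. An antisense gene, Gm43352, covers all 1208 bases of the exon on the other strand and had 43, 87 and 16 counts. The sources used here do not say whether the counting used strand, so reads of the exon and of the antisense gene may not be separable.

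Lef1-206, annotated as retaining an intron, took 13.4 ± 1.56% of the gene's TPM. Lef1-204 differs from Lef1-201 in lacking exon 6 and an exon of 41 bases near its end. Exon 6 is shown because it separates the coding forms. Its 84 bases lie at chr3:131191023-131191106.
Lef1 exon 6: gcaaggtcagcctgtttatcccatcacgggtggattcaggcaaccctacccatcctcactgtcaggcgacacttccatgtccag
Lef1-204 was measured at 4.50, 4.61 and 5.18 TPM, and Lef1-202, which also lacks the exon, is listed at 0 TPM in each library. The forms that keep exon 6, Lef1-201 and Lef1-203, were thus above those without it in each library. No annotated coding transcript joins the downstream start to a lack of exon 6, so such a form could not be counted. The credibility bounds of Lef1-201 and Lef1-204 overlap in libraries 1 and 3 but not in library 2.

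Of the 2 Tcf7 transcripts, Tcf7-201 took 96.1%, 96.0% and 97.3% of the gene's TPM (mean 96.5 ± 0.72%), and Tcf7-202 the remainder, at 7.01, 10.2 and 8.91 TPM. Tcf7-201 was lowest in library 1 and highest in library 3, at 174, 241 and 320 TPM, as was the gene. Tcf7-202 begins with exons of 87 and 67 bases that Tcf7-201 lacks, and these are the exons through which the frame shown above runs. Tcf7-202 also ends with an exon of 727 bases, against 1592 in Tcf7-201. Its small share therefore rests on reads from both ends of the transcript and is not a measure of the long protein. The exons of 163 and 108 bases have the same lengths in both genes, and Lef1-204 and Tcf7-201 share 71.2% and 80.6% of their bases there, the highest identities among exons of equal length.

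**Figure D4:**
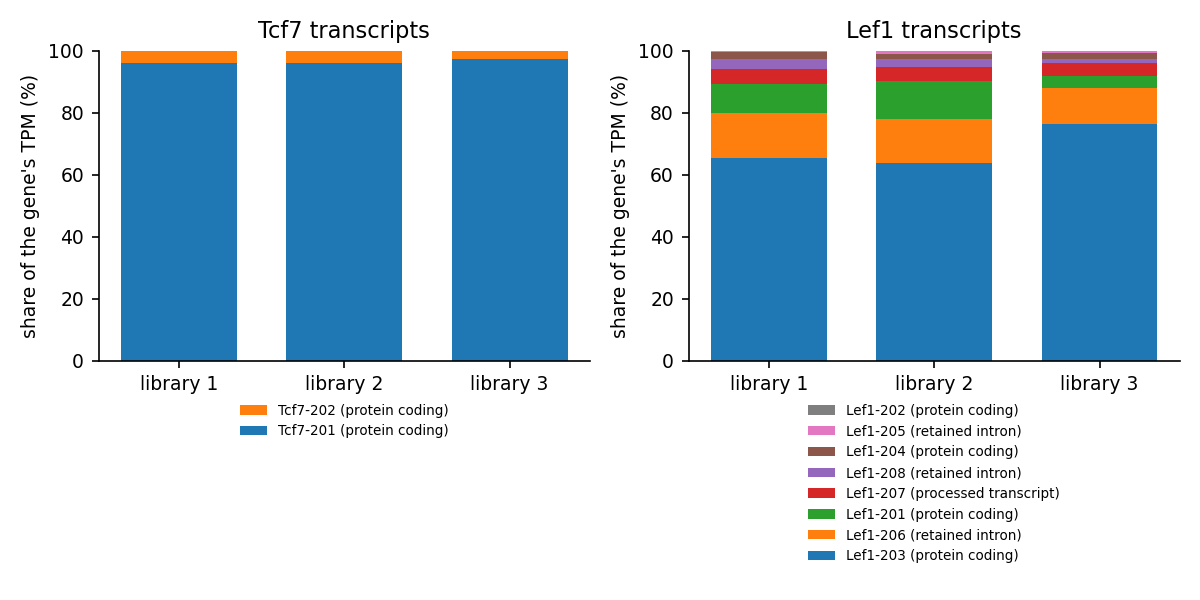
Stacked bars give the share of the gene's TPM (y axis, percent) that each annotated transcript took in libraries 1, 2 and 3, for Tcf7 on the left and Lef1 on the right. Tcf7-201 takes 96.1%, 96.0% and 97.3%, and Lef1-203 takes 65.4%, 63.9% and 76.4%.

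The transcript shares of Ctnnb1 differed between libraries as well. Its 6 protein-coding transcripts summed to 48.3, 40.7 and 7.68 TPM, or 51.7%, 48.9% and 19.2% of the gene. Most of that was Ctnnb1-201, with 1621, 1345 and 185 expected counts. The retained-intron transcript Ctnnb1-215, at chr9:120959216-120960507, had 31.0, 27.0 and 20.0 TPM. It ends at the same base as Ctnnb1-201, so the model had to divide reads between them. The gap between library 3 and the other libraries was thus wider in the coding transcripts than in Ctnnb1-215, at 7.68 TPM against 40.7 or more. The coding transcripts of Satb1 summed to 27.3, 41.1 and 25.6 TPM, below those of Ctnnb1 in library 1, level with them in library 2 and above them in library 3.

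Myb is annotated with 2 protein-coding transcripts. Myb-201, with a coding sequence of 1908 bases, had 2.83, 2.23 and 0.21 TPM, and Myb-203, with one of 2265 bases, had 2.41, 2.64 and 2.38 TPM. Myb-201 was lowest in library 3, and both transcripts have a local GC content of 75%. The split between them is an estimate of the authors' model. Tle4-201 took 84.5 ± 7.63% of the TPM of Tle4, but 65.3% of its posterior mean TPM. There Tle4-202, which has the same ends and length, took 18.5%, so this split is uncertain. Tle3 spread over 18 transcripts, led by Tle3-218 with 41.0%, 48.3% and 20.5% of the gene's TPM, and Satb1 over 14, led by Satb1-204 with 44.8%, 44.5% and 28.7%. The leading coding transcripts of Satb1, Ctnnb1, Tle1, Tle3 and Tle4 had their lowest share in library 3, and those of Tcf7, Lef1 and Myb their highest. This was not counted over all genes, so it does not set these genes apart from others. The shifts also differ in weight. Tle1-205 rests on 9, 9 and 5 counts, and Tle4-201 had 80.9% in library 2 and 79.3% in library 3.

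Reads also fell on other entries of the annotation that overlap genes followed here. Inside Satb1, 4 further entries of the annotation lie on its strand without sharing an exon base with it, and they summed to 1371, 2093 and 2425 counts, more than Satb1 itself (1284, 1858 and 1137) in each library. They were highest in library 3, while Satb1 had nearly equal scaled counts in libraries 1 and 3 on GENCODE M21 (1193 and 1183). Inside Lef1, 1 such entry, Gm42449, had 267, 410 and 482 counts, far under the 6115 to 7624 of Lef1, and followed the order of Lef1. Gm26551, a long noncoding RNA gene that overlaps Tcf7 on its strand and shares no exon base with it, had 6.93, 11.8 and 13.7 TPM.

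The genes closest to Tcf7 in their pattern over the 3 libraries were sought among 7528 other protein-coding genes with at least 10 TPM on average, by the Euclidean distance of the log2(TPM + 1) deviations from each gene's own mean. They were Rpl27a (distance 0.03), Rpl31 (0.03) and Rpl10-ps3 (0.05), the first pair encoding proteins of the large ribosomal subunit. Rpl27a was measured at 88.8, 121 and 158 TPM. The entry Rpl10-ps3 carries a pseudogene's name and shares sequence with Rpl10, so its reads are uncertain. Closest to Lef1 were Ten1, a component of a complex that protects telomeres (51.3, 62.7 and 70.4 TPM), Rpl35 and Rps19, at distances of 0.00324, 0.00704 and 0.0133. Lef1 and Tcf7 were 0.29 apart. With 3 libraries, such likeness describes a pattern of libraries only.

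The remaining genes of the pathway were described by lists under the same detection limit. Of all 22028 protein-coding genes, 10436 were detected (47.4%), and the median level over all 22028 was 0.89 TPM. Of 8 relatives of the genes followed here, 3 were detected. Aes, a short Groucho-related gene, had 148, 120 and 58.5 TPM, above Tle3 in each library, followed by Mybl2 (3.67 ± 1.34) and Tle2 (2.45 ± 1.56), the latter at 0.65 TPM in library 3 and thus not counted. Tcf7l2, the third gene counted, had 1.80 ± 0.42 TPM and Tcf7l1 0.79 ± 0.57. Among the 4 genes of the TCF and LEF family, Tcf7 and Lef1 therefore held nearly all of the measured level.

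Of 11 genes for the complex that marks beta-catenin for destruction and for its regulators, 10 were detected as RNA, with a median of 9.16 TPM. Csnk1a1, its priming kinase, led with 76.9 ± 22.4 TPM, followed by Chd8, a chromatin factor that binds beta-catenin (48.1 ± 8.48), and Fbxw11, a ubiquitin ligase subunit (33.3 ± 16.2). Fbxw11 was low in library 3, at 15.2 TPM against 46.3 and 38.4. Of 8 coactivator genes, 7 were detected, led by Med12 of the Mediator complex (84.2 ± 7.08), the remodelling ATPase gene Smarca4 (54.2 ± 6.10) and the acetyltransferase gene Ep300 (31.1 ± 4.16). The exception was Pygo1, at 0.02 TPM, while its relative Pygo2 had 26.1 ± 10.95.

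Upstream of beta-catenin, 7 of 18 genes for Wnt receptors, their regulators and Dishevelled proteins were detected, with a median of 0.09 TPM. Rnf43, a ubiquitin ligase that removes Frizzled receptors, led with 62.1, 37.0 and 42.1 TPM, before Dvl2 (15.7 ± 8.45) and Dvl3 (5.05 ± 0.78). Of the receptor genes, Lrp6 (3.48 ± 0.44) and Ryk (1.16 ± 0.14) were detected. None of the Frizzled genes was detected. Fzd6 came closest with 1.14, 0.58 and 0.21 TPM. Fzd2 and Fzd8 had 0 counts in each library, which does not show that they are silent. Of 21 genes for Wnt ligands and their secretion, 2 were detected. Wls, the carrier of Wnt proteins to the surface, had 111 ± 18.3 TPM and Wnt3 had 3.47 ± 0.38. Next was Wnt10a with 0.43 ± 0.20, and 7 Wnt genes had 0 counts in each library.

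Of 11 genes known as Wnt targets, 5 were detected, and 2 of these are Tcf7 and Lef1 themselves. The others were Myc (132 ± 39.6), the adhesion receptor gene Cd44 (87.9 ± 6.65) and Axin2, a feedback inhibitor of the pathway (5.67 ± 1.22). Nkd1, Notum and Sp5 had 0 counts in each library. Adhesion partners of beta-catenin were sparse, with Ctnna1 at 23.0 ± 3.41, Ctnnd1 at 2.88 ± 0.57 and Jup at 1.99 ± 0.45 TPM, while Cdh1 stayed under 1 TPM.

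Genes of resting or naive T cells were all detected, 15 of 15 with a median of 243 TPM, including Tcf7, Lef1 and Satb1. Among the highest were Ccr7, a chemokine receptor for lymph node entry (408 ± 76.2), and Ets1, a transcription factor of lymphocytes (403 ± 115). Tcf7 and Lef1 lay near the middle of this list and Satb1 in its lower range. Genes listed for effector T cells were present beside them, 11 of 12 detected with a median of 50.5 TPM. They were led by Icos (236 ± 34.5), Batf (226 ± 25.03) and Cxcr3 (195 ± 23.8). Bulk RNA does not show whether both sets of genes were expressed in the same cells.

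**Figure D5:**
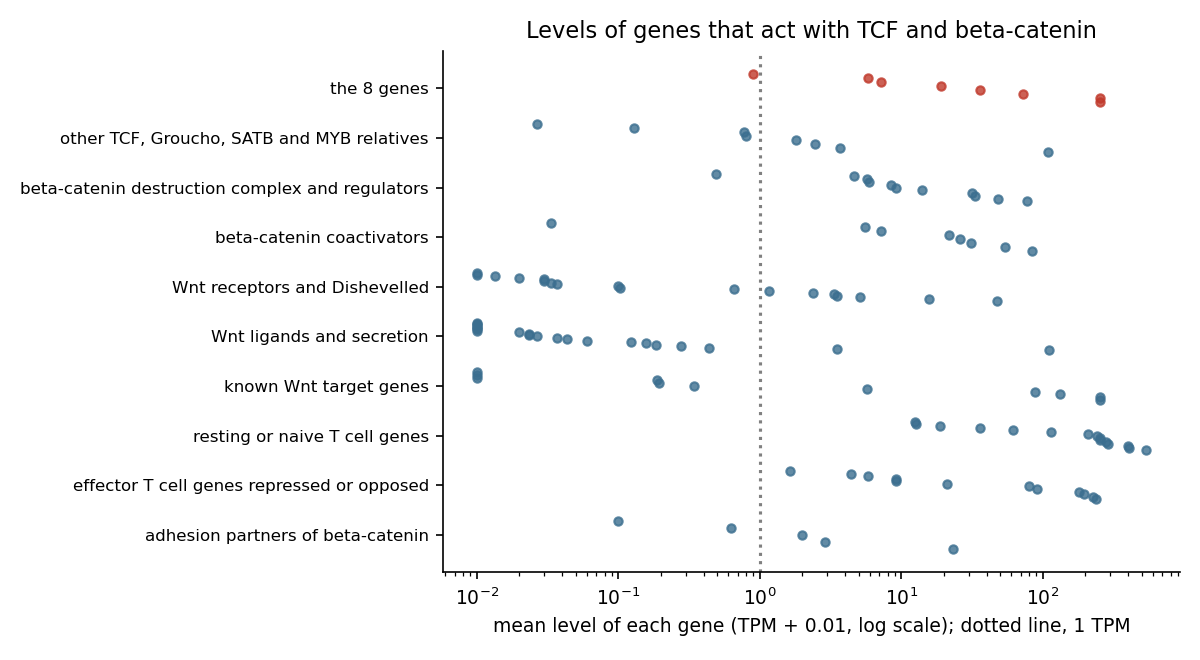
Mean level of each gene over the 3 libraries (TPM plus 0.01, log axis) for the genes followed here in red and for the lists around them in blue, 1 point per gene, with a dotted line at the detection limit. Destruction complex and coactivator genes lie mostly above 1 TPM (10 of 11 and 7 of 8 detected), and Wnt ligand genes mostly below it (2 of 21 detected).

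The 250 bases before each RefSeq start of the 8 genes (18 windows, GRCm38.p6) were searched on both strands for CTTTGNT, N being any base. This pattern was used here for the motif that TCF and LEF proteins bind, and other forms of the motif were not searched. The pattern was found in 2 windows, both before starts of Satb1 at 51812054 and 51812184 on chromosome 17, which overlap and hold the same match. Of 32817 windows of all genes, 5246 held it (16.0%). The windows before starts of Tcf7 had GC contents of 64.4% and 76%. For Lef1, the window before the downstream start at 131112791 had 50.8%, against 66.4% before its upstream starts. A window before a Lef1 start further downstream, at 131156294, had 44.8%.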

How the data were processed

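PolyA-selected RNA of 3 libraries, technical replicates of 1 donor per the labels, was analysed as 1 group. The authors deposited gene and transcript tables of expected counts, TPM and FPKM (mm10, GENCODE M21) with posterior mean counts and TPM, and a second gene table of whole-number counts (GENCODE M4). Percent of isoform is a deposited column, per the file headers, and transcript shares here were computed from TPM and expected counts. The sources used here name neither aligner nor counter. Fragments were sheared by Covaris, per the labels.

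Expected counts were rounded. Chi-square tests used TMM factors of edgeR 4.0.16 (R 4.3.3), with DESeq2 1.42.0 size factors as an alternative, and were tested on simulated data. Local GC trends were lowess curves (fraction 0.3) over genes averaging 100 counts or more. Proteins were translated from the transcripts and aligned globally (Biopython 1.88, BLOSUM matrix). No protein sequences are printed.

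The 8 genes and all lists were chosen with earlier results of these data known. All 8 genes are named, and of each list the 3 highest genes, with others chosen after their values were seen; some genes that this takes are not reported here. Alternatives were other scalings, filters, pseudocounts and detection limits, FPKM, posterior means, the second table, GC trend removal and leaving out each library.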

Additional observations from a re-analysis of the deposited data

How the results depend on the processing

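The labels give 1 group only. No paired analysis was possible because there is no second group whose libraries could be paired. The count of genes that differ between libraries was 9501, and it was 6222 in the second gene table, 8837 with the local GC trend removed, and 4489 to 8029 when 1 library was left out, lowest without library 3. Of the 8 genes, 6 were called under each omission of a library and after removal of the GC trend, and 7 under the other alternatives, while the share of all tested genes called ranged from 30.2% (without library 3, and with no filter) to 74.9% (mean count of 50 or more). Satb1 (0.866 without library 2), Tle4 (0.64 without library 1) and Myb (0.906 without library 3, and 0.606 or 0.645 with the GC trend of the leading or the leading coding transcript removed) lost their adjusted p under the threshold; the cause was not tested. Neighbours told apart numbered 4 to 5 with 1 library left out, against 3. The share of Tcf7-201 was 97.5% of expected counts against 96.5% of TPM.

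With a limit of 5 TPM in place of 1, detected genes numbered 1 among the relatives, 2 among Wnt receptors, 1 among Wnt ligands, 1 among adhesion partners, 1 among thymocyte markers and 3 among B cell markers. At 0.5 TPM, 4 thymocyte and 5 myeloid markers were detected. The other 72 list counts moved by no more than 1.5 times. Of 40 alternative mean levels, 35 stayed within 1 SD. Tle1 had 1.46 TPM as a posterior mean and 1.08 TPM over nuclear protein-coding genes, above the detection limit that it missed as deposited. The 3 libraries come from 1 donor, so no value here measures variation between mice.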
